A study of Mus musculus with 16 samples.

Results

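Cd200, Tspan13, Tspan4, Chek2 and Septin1 are 5 of the 35415 genes counted in the gastrocnemius muscle, the large calf muscle, of 16 mice. Their rows were found by symbol in the count and FPKM tables, and all 5 passed the filter on low counts that kept 14749 genes for testing. FPKM are fragments scaled to gene length and library total, so levels of different genes can be set side by side on that scale. The 5 genes were chosen because they were lower in muscle of tumor-bearing mice, that is, they were selected on the T and C values, and probably on the TE values as well. The differences of T and of TE from C in these 5 genes are therefore given as descriptions. Ranks and thresholds named for them show how the genes were chosen and do not serve as tests.

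All mice were wild type male BALB/c mice that entered the study at 8 weeks of age, and 4 of the 12 mice of each group were sequenced. The T group carried CT26 cells, a colon carcinoma line of the same mouse strain, inoculated under the skin of the left dorsolateral hind limb. The E group received saline at that site and ran on a treadmill at 14 m/min for 60 min a day, 6 days a week, for 4 weeks. The TE group had CT26 cells and the same running, which began on the day after inoculation. The C group had saline and, like the T group, stood on a stationary treadmill, for a shorter time each day than the running sessions. Anesthesia and an injection were thus shared by all 4 groups. Time on the treadmill and the injected fluid, saline or cells in phosphate-buffered saline, were not. Not every mouse inoculated in the TE group formed a tumor, and "tumor-bearing" here names the T and TE groups as labelled. Whether each sequenced mouse carried a tumor, and which leg its muscle came from, were not given in the sources used here.

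CD200 is a membrane glycoprotein that binds the inhibitory receptor CD200R1 on myeloid cells and dampens their activation, and it is made by endothelial cells, neurons, B cells and other cells. Tetraspanins such as Tspan13 and Tspan4 cross the membrane several times and gather integrins and other partners into membrane domains, and Tspan4 is also known from migrasomes, the vesicles that migrating cells leave behind. Chek2 encodes the checkpoint kinase that ATM activates after DNA double-strand breaks and that acts on p53 and CDC25 phosphatases, while septins are GTP-binding proteins that assemble into filaments, Septin1 being known mainly from lymphoid cells.

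The library totals lay between 35628211 and 37635741 counts, so that 3 counts were worth 0.0797 to 0.0842 CPM, counts scaled to the library total. The 12 muscle fiber marker genes summed to 78600 to 89900 FPKM in every library, in keeping with the labelled tissue. Summed T cell, B cell and lymph node genes were highest in C replicate 3, E replicate 1 and TE replicate 4, reaching 19.3, 33.5 and 109.0 FPKM in TE replicate 4, and results are also given without these 3 libraries where the call changed. Summed neutrophil genes were 1.30 to 7.25 FPKM in the C group, 1.38 to 8.14 in E, 14.9 to 82.3 in T and 19.7 to 34.0 in TE. The part of these cells in the results was not tested.

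In the mouse build GRCm39, Cd200 lies at chr16:45202470-45229594 on the minus strand with 6 exons, Tspan13 at chr12:36061362-36092715 on the minus strand with 6 exons, and Tspan4 at chr7:141055138-141073340 on the plus strand with 7 exons. Chek2 lies at chr5:110987826-111022011 on the plus strand with 15 exons, and Septin1 at chr7:126812948-126832302 on the minus strand with 11 exons. No other gene overlapped the exons of Cd200 or Chek2. Tspan4 shared 746 of its 3134 exon bases with Polr2l and 292 with Chid1, Septin1 shared 300 of 4651 with Mylpf, 246 with Zfp553 and 46 with the noncoding gene Gm71806, and Tspan13 shared 165 of 7342 with the noncoding Gm60538, each on the opposite strand. Whether the counting used strand is not given in the sources used here, so the values of Septin1 and Tspan4 are less certain than those of Cd200 and Chek2.

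The promoters of the genes are shown because members that differ between the same groups may be compared for shared motifs. RefSeq promoter entries in build GRCm38.p6 matched 4 of the 5 genes, Septin1 having none, and the 250 bases before the start were searched on both strands. Capitals mark the Sp1 site GGGCGG in Cd200 and Tspan13 and the CCAAT box in Tspan13 and Chek2, which stands as ATTGG where it lies on the other strand. The windows are chr16:45409054-45409303 on the minus strand for Cd200, chr12:36042479-36042728 on the minus strand for Tspan13 and chr5:110839733-110839982 on the plus strand for Chek2.
Cd200: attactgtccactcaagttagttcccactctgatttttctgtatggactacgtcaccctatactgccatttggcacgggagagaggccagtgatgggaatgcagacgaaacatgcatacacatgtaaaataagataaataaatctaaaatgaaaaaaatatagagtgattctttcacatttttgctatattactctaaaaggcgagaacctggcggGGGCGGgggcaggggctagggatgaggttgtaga
Tspan13: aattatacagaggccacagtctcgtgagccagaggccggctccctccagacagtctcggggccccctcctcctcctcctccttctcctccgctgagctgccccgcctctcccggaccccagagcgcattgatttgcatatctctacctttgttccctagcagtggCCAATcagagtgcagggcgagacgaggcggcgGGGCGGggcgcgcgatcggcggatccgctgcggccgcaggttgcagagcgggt
Chek2: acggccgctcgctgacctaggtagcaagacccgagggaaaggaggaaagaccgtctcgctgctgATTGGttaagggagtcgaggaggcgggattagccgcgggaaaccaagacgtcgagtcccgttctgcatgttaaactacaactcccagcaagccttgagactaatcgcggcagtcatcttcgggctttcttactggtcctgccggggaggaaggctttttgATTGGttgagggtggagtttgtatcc
The Sp1 site was present before Cd200, Tspan13 and Tspan4 and in 32.7% of 32851 mouse windows of this length. The CCAAT box was present before Tspan13 and Chek2 and in 33.8% of windows. Tspan4 had separate windows starting at chr7:141474986, with the Sp1 site, and at chr7:141476130, without it. Its hit counts either window, while the shares are per window. None of the 4 genes had a STAT site (TTCNNNGAA, 7.02% of windows), an NF-kB site (1.41%), a FoxO site (GTAAACA, 3.17%), a glucocorticoid receptor site (ACANNNTGT, 5.84%), a cAMP response element (TGACGTCA, 1.55%) or the E-box CAGCTG (13.0%). The window of Cd200 was the poorest in GC, at 42.4%, against 55.6% for Chek2 and 66.0% for Tspan13, with a median of 52.4% over all windows. No motif was shared by all 4 genes.

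Tspan13 had the highest level of the 5 genes, with a mean of 35.1 FPKM over the 16 mice, above 91.7% of the tested genes. Cd200 followed at 21.1 FPKM, above 86.9% of them. Tspan4 stood at 6.56, Septin1 at 3.67 and Chek2 at 1.54 FPKM, and Chek2 was therefore measured from 140 to 383 counts per library against 1228 to 2653 for Cd200. In bulk muscle, fewer cells of a type and less RNA per cell cannot be told apart.

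Cd200 measured 26.0, 30.4, 25.9 and 26.6 FPKM in the C mice, 22.7, 24.1, 25.3 and 22.7 in the E mice, 14.1, 16.9, 13.8 and 17.6 in the T mice, and 19.0, 18.9, 15.9 and 17.1 in the TE mice. The group means fell in the order C (27.2 ± 2.13, SD, n = 4), E (23.7 ± 1.26), TE (17.7 ± 1.51) and T (15.6 ± 1.91). The C, E and TE ranges did not overlap, whereas T and TE did. The lowest tumor-free mouse was thus above the highest tumor-bearing mouse.

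Tspan13 measured 40.3, 47.3, 44.0 and 44.9 FPKM in the C mice, 41.6, 38.2, 39.6 and 35.3 in the E mice, 28.7, 27.1, 24.8 and 25.5 in the T mice, and 33.2, 26.8, 33.0 and 31.7 in the TE mice. The means were 44.1 ± 2.89, 38.7 ± 2.67, 26.5 ± 1.72 and 31.2 ± 3.01 FPKM in C, E, T and TE (SD, n = 4). Tumor-free and tumor-bearing mice did not overlap, while C overlapped E and T overlapped TE. In the TE group, 3 of 4 mice lay above every T mouse and replicate 2 lay within the T range.

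Tspan4 differed from the other genes in that its lowest group was TE. It measured 7.65, 8.64, 9.04 and 10.3 FPKM in the C mice, 6.46, 5.28, 7.91 and 5.62 in the E mice, 5.57, 6.80, 5.74 and 6.86 in the T mice, and 4.51, 5.12, 4.11 and 5.37 in the TE mice. The means were 8.91 ± 1.10, 6.32 ± 1.17, 6.24 ± 0.682 and 4.78 ± 0.576 FPKM in C, E, T and TE (SD, n = 4). Every TE mouse was below every T mouse, and E overlapped C, T and TE.

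Chek2 measured 1.47, 2.35, 2.22 and 2.33 FPKM in the C mice, 2.17, 1.83, 1.78 and 1.90 in the E mice, 0.861, 1.18, 0.965 and 1.05 in the T mice, and 1.25, 1.06, 1.20 and 0.976 in the TE mice. The means were 2.09 ± 0.416, 1.92 ± 0.174, 1.01 ± 0.133 and 1.12 ± 0.129 FPKM in C, E, T and TE (SD, n = 4). C replicate 1 lay apart from the other C mice but was still above every tumor-bearing mouse. The 8 tumor-free and the 8 tumor-bearing mice did not overlap.

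Septin1 measured 5.78, 4.37, 4.40 and 4.29 FPKM in the C mice, 4.39, 4.56, 3.82 and 3.68 in the E mice, 2.68, 2.25, 2.42 and 3.00 in the T mice, and 3.11, 3.13, 2.82 and 4.07 in the TE mice. The means were 4.71 ± 0.714, 4.11 ± 0.429, 2.59 ± 0.330 and 3.28 ± 0.542 FPKM in C, E, T and TE (SD, n = 4). Neighbours in the order C, E, TE and T all overlapped. TE replicate 4, with the highest T and B cell sums of all libraries (19.3 and 33.5 FPKM), had the highest TE value of Septin1. C replicate 1, with the lowest T and B cell sums of the C group (0.645 and 0.363 FPKM), had the highest Septin1 of all 16 mice, and C replicate 3, with 8.74 and 10.5 FPKM, was at 4.40. Within groups, the r of Septin1 with the summed B cell genes was 0.27 (permutation p = 0.370, adjusted p = 0.954; rho = 0.14, p = 0.619, adjusted p = 0.983), and -0.02 without the 2 farthest mice. It was 0.28 with the T cell genes (permutation p = 0.376) and 0.315 with the lymph node genes (permutation p = 0.297), with an adjusted p of 0.954 each. The part of lymphoid cells in the Septin1 values was not tested.

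**Figure D1:**
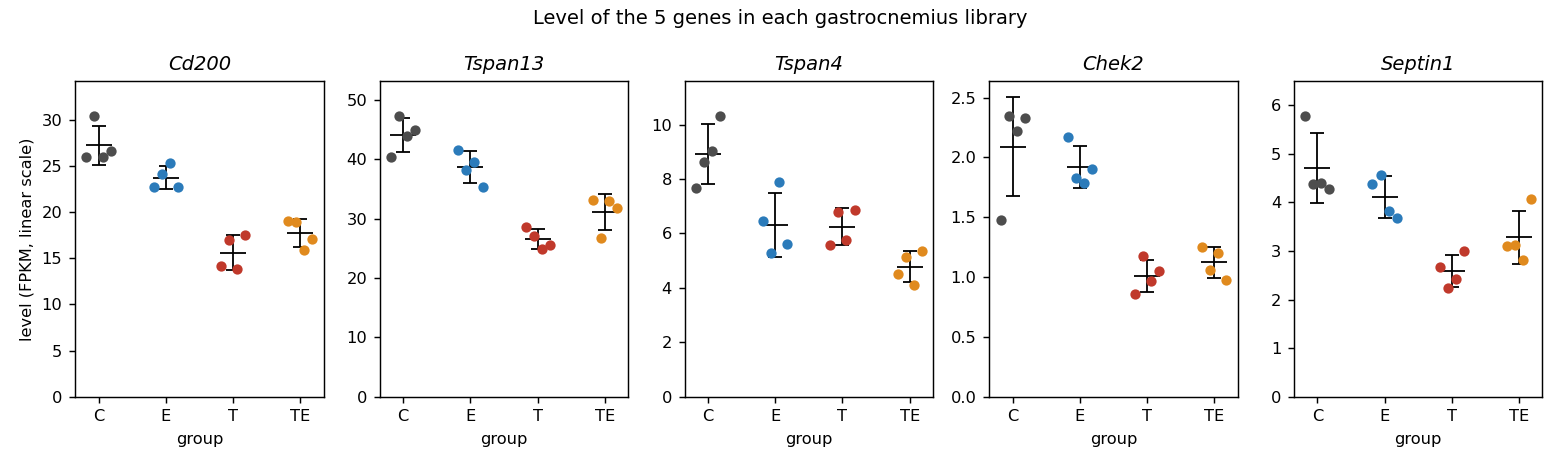
Level of each gene in FPKM (linear axis from 0) in the C, E, T and TE groups, with 1 point per mouse and bars for the mean and SD of 4 mice. Every T and TE mouse lies below every C mouse in all 5 panels, and only Tspan4 has its lowest mean, 4.78 FPKM, in the TE group.

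As a description of how the genes were chosen, the fitted log2 fold change of T against C was -1.02 for Chek2 (SE 0.143), -0.84 for Septin1 (SE 0.133), -0.78 for Cd200 (SE 0.0856), -0.70 for Tspan13 (SE 0.0781) and -0.49 for Tspan4 (SE 0.118). Cd200, Tspan13, Chek2 and Septin1 were ranks 1, 2, 3 and 5 by p-value among the genes lower in T, and they were 4 of the 24 genes called lower (0.163% of all tested genes). Tspan4 was at rank 41 and just outside the threshold in edgeR, and inside it in 4 of 26 alternative fits, DESeq2 among them. These values chose the genes, so the ranks and calls of this paragraph carry no test. All 5 had every T mouse below every C mouse in FPKM, a pattern that 4.21% of tested genes had.

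The first question was whether a tumor went with lower levels of these genes in trained mice too. In TE compared with E, all 5 genes were lower, and Chek2 was the 1 of 5 called at an adjusted p under 0.05, in a comparison where 17 genes (0.115%) were called lower. Chek2 fell by 0.72 on the log2 scale (SE 0.142, 95% interval -1.02 to -0.42, adjusted p = 0.0429, edgeR). The E mice were not used in the choice of the genes as far as the T and C values go, but the TE mice may have been. This limits the comparison as a test.

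The other 4 genes did not pass in TE compared with E. All 5 genes were at an unadjusted p under 0.05 in edgeR, against 9.23% of tested genes, and the TE values may have been used in their choice. Cd200 differed by -0.37 (SE 0.0852, adjusted p = 0.0962, edgeR), Tspan4 by -0.35 (SE 0.119, adjusted p = 0.321; -0.24 without E replicate 3), Septin1 by -0.28 (SE 0.132, adjusted p = 0.538) and Tspan13 by -0.26 (SE 0.0778, adjusted p = 0.230). On FPKM alone, the exact permutation test of 4 against 4 mice, two-sided, gave its smallest possible p of 0.0286 for Cd200, Tspan13 and Chek2, 0.0571 for Tspan4 and 0.0857 for Septin1. Those 3 genes had every TE mouse below every E mouse, as did 5.56% of tested genes.

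The Chek2 call was close to the threshold. It was lost in 15 of 26 alternative fits, with adjusted p between 0.0539 and 0.161 when any of the E or TE replicates or C replicates 2, 3 or 4 was left out, and 0.320 without the 3 libraries of high lymph node genes. The log2 difference kept its direction in all 26, from -0.77 to -0.46, the smallest being on log2(FPKM + 1), a scale that understates the change of low genes. The Chek2 fold change without those 3 libraries was -0.59. Cd200 was called in TE compared with E by DESeq2 (adjusted p = 0.0115), in a fit of only the groups compared (adjusted p = 0.0472, edgeR) and without T replicate 3 (adjusted p = 0.0449, edgeR).

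The second question was whether training restored the genes in tumor-bearing mice. In TE compared with T, 0 of 5 genes were called by edgeR, and 0 of all tested genes (0.0%). At an unadjusted p under 0.05, 3 of the 5 genes differed, against 5.88% of tested genes, and of these Tspan13 and Septin1 were higher and Tspan4 was lower in TE. DESeq2 likewise called 0 of the 5.

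Septin1 was higher in TE than in T by 0.32 on the log2 scale (95% interval 0.04 to 0.60, adjusted p = 0.827, edgeR), Tspan13 by 0.21 (0.05 to 0.38, adjusted p = 0.758), Cd200 by 0.17 (-0.01 to 0.35, adjusted p = 0.852) and Chek2 by 0.14 (-0.17 to 0.44, adjusted p = 0.953). These values made up 38.6% of the log2 gap between C and T for Septin1, 30.5% for Tspan13, 21.6% for Cd200 and 13.5% for Chek2. The gaps have errors of their own (SE 0.0781 to 0.143) and, having been used in the choice of the genes, are likely too large, so these shares are descriptions. Tspan4 instead went a further 0.40 down (95% interval -0.65 to -0.15, adjusted p = 0.693), which is -82.9% of its gap. Single libraries moved 2 of these values by over 1.5 times. Cd200 was at 0.10 without T replicate 3. Chek2 was at 0.08 without T replicate 1, 0.09 without TE replicate 1, 0.22 without T replicate 2 or TE replicate 4, and 0.21 without the 3 libraries high in lymph node genes.

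The T mice took part in the choice of the genes, so that a chance low value in T would by itself make TE look higher. The 24 genes called lower in T compared with C, which include Cd200, Tspan13, Chek2 and Septin1, share that choice. Of the 24, 21 had a higher TE than T level, with a median of 29.7% of the gap regained. Only Tspan4 of the 5 genes had TE and T ranges that did not overlap, with TE below T, as in 0.976% of tested genes, and this is a description. Tspan4 ranked first among the genes lower in TE compared with C and 41 in T compared with C, so a low value in TE may have taken part in its choice.

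Compared with the C group, the TE mice stayed lower in all 5 genes, which is a description since C, and probably TE, took part in the choice. The log2 fold changes were -0.89 for Tspan4, -0.88 for Chek2, -0.61 for Cd200, -0.52 for Septin1 and -0.49 for Tspan13. The first 3 and Tspan13 were 4 of the 14 genes (0.0949%) past the edgeR threshold in this direction, which the choice of the genes may have fixed. Every TE mouse was below every C mouse for all 5, as for 4.37% of tested genes. Without the 3 libraries of high lymph node genes, 2 of the 5 were past it, Tspan13 and Chek2 dropping out. Chek2 also dropped out without C replicate 4, and Septin1 was added by DESeq2.

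**Figure D2:**
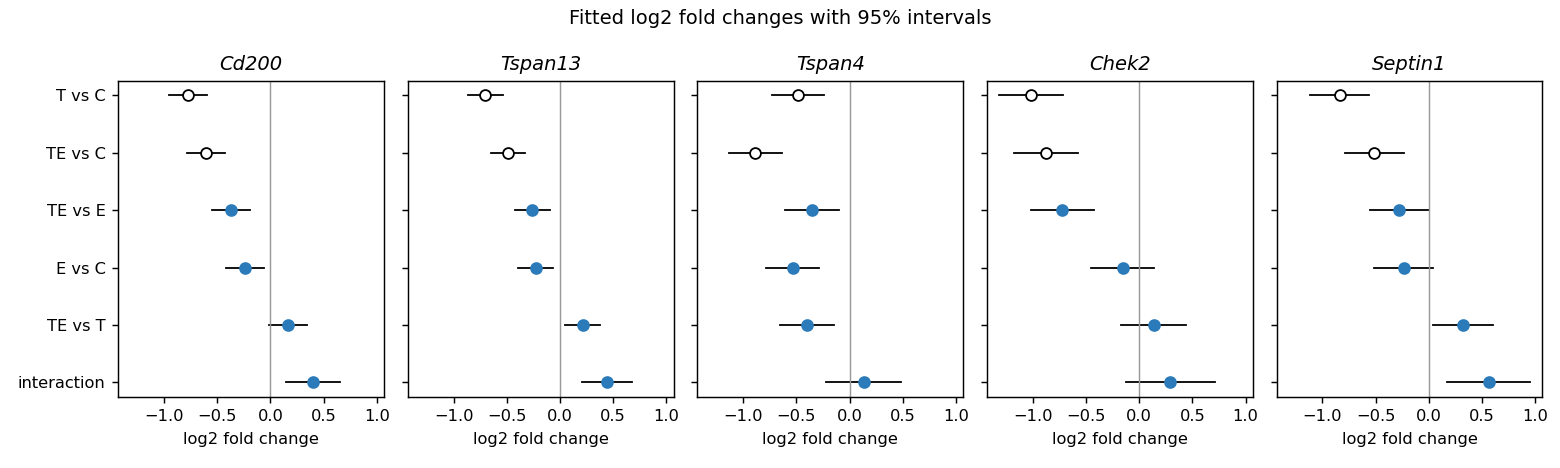
Log2 fold changes (horizontal axis) from the edgeR fit in 6 comparisons, with lines for 95% intervals. Open circles mark the comparisons used or probably used to choose the genes, and the TE vs T values run from -0.40 for Tspan4 to 0.32 for Septin1.

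In tumor-free mice, 0 of the 5 genes were called between trained and untrained groups, and all 5 fitted values were negative. In E compared with C, the log2 differences were -0.54 for Tspan4 (SE 0.118, adjusted p = 0.0867, edgeR), -0.24 for Cd200 (adjusted p = 0.232), -0.24 for Septin1 (adjusted p = 0.428), -0.23 for Tspan13 (adjusted p = 0.214) and -0.16 for Chek2 (adjusted p = 0.648). With 1 C library left out, the Chek2 value ran from -0.28 (without replicate 1) to -0.10 (without replicate 2 or 4), and Septin1 was at -0.10 without C replicate 1. edgeR called 13 of all tested genes in this comparison (0.0881%), all of them higher, and 3 of the 5 genes had an unadjusted p under 0.05, as had 14.2% of tested genes. Cd200 alone had every E mouse below every C mouse, as had 2.39% of tested genes. The C mice took part in the choice, so that chance high values in C would make E look lower.

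Tspan4 came nearest to a call in the E group. It was called by DESeq2 (adjusted p = 0.00514), with no filter on low counts (adjusted p = 0.0446), and without E replicate 3 (adjusted p = 0.0411) or T replicate 3 (adjusted p = 0.0428). Its difference ran from -0.65 to -0.44 over all 26 alternatives. The mean of Tspan4 was lower in each trained group than in the untrained group of the same tumor state, whereas the other 4 genes had higher means in TE than in T. Of the genes that overlap Tspan4, Polr2l had log2 differences of -0.10 in E compared with C (adjusted p = 0.542, edgeR) and 0.10 in TE compared with T (adjusted p = 0.899). Chid1 had -0.0085 (adjusted p = 0.987, edgeR) and -0.21 (adjusted p = 0.902). The part of shared reads in the Tspan4 values was not tested.

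Whether the tumor difference itself depended on training was tested as an interaction. All 5 values were positive, the tumor difference being smaller in trained mice, with 0.56 for Septin1 (95% interval 0.17 to 0.95, adjusted p = 0.438, edgeR), 0.44 for Tspan13 (0.21 to 0.67, adjusted p = 0.420), 0.40 for Cd200 (0.15 to 0.66, adjusted p = 0.438), 0.29 for Chek2 (-0.13 to 0.72, adjusted p = 0.671) and 0.13 for Tspan4 (-0.22 to 0.48, adjusted p = 0.833). The Tspan4 value ran from 0.06 to 0.26 with 1 library left out, the ends being without C replicate 4 and E replicate 3. edgeR called 0 of the 5 and 0 of all tested genes (0.0%), with 3 of the 5 at an unadjusted p under 0.05 against 9.21% of tested genes. A dependence on training was therefore not shown for any of them. The T and C mice that chose the genes enter this value too, and a chance excess of their gap raises it.

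No pair of the 5 genes was shown to move together from mouse to mouse once the group means were removed. For each mouse, the deviation of log2 CPM from the mean of its group was taken, and the 10 pairs of genes were correlated over the 16 mice. The median Pearson r was -0.01, with 5 of 10 pairs positive, and 0 of 10 pairs reached an r of 0.5, which 4.90% of all pairs of one of these genes with another tested gene did. No mouse was above its group mean in all 5 genes, and 1 mouse, T replicate 3, was below it in all 5.

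Chek2 and Septin1 had the strongest relation, in the opposite direction (Pearson r = -0.66, p = 0.0282, adjusted p = 0.282; Spearman rho = -0.49, p = 0.0830, adjusted p = 0.604; permutation of mice within groups, two-sided, 10 pairs). It no longer held without the 2 mice farthest from the median (r = -0.14), while r was -0.66 both in the 8 tumor-free and in the 8 tumor-bearing mice. C replicate 1 was 0.42 below its group mean in Chek2 and 0.36 above it in Septin1 on the log2 scale. Leaving out that mouse gave r = -0.42.

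Cd200 and Tspan4 had the highest positive value (r = 0.36, permutation p = 0.170, adjusted p = 0.658; rho = 0.36, p = 0.181, adjusted p = 0.604; r = 0.20 without the 2 farthest mice). In the 8 tumor-free and the 8 tumor-bearing mice, r of Cd200 and Tspan4 was -0.02 and 0.68. Tspan13 and Chek2 followed (r = 0.35, permutation p = 0.197, adjusted p = 0.658; rho = 0.44, p = 0.122, adjusted p = 0.604), with r = 0.72 without the 2 farthest mice. For this pair r was 0.61 in the tumor-free and 0.21 in the tumor-bearing mice, and ran from 0.28 to 0.59 with 1 library left out. Cd200 and Tspan13 had r = -0.06 (permutation p = 0.861, adjusted p = 0.918; rho = -0.04, p = 0.916, adjusted p = 0.963), with r = -0.31 without the 2 farthest mice, 0.30 in the 8 tumor-free mice and -0.17 in the 8 tumor-bearing mice. The remaining 6 pairs lay between -0.11 and 0.24, with permutation p from 0.402 to 0.918.

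**Figure D3:**
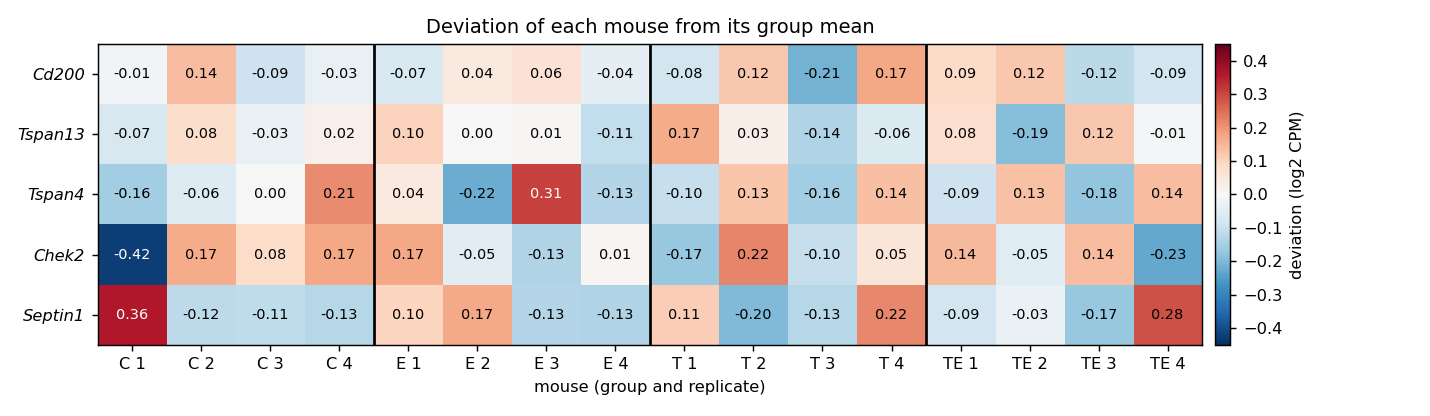
Deviation of each of the 16 mice (columns, by group and replicate) from its group mean in log2 CPM for each gene (rows), with red above and blue below the mean. All columns but that of T replicate 3, which is blue throughout, mix both colors, and C replicate 1 is at -0.42 in Chek2 and 0.36 in Septin1.

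The genes most like each of the 5 by this measure were different for every gene. For Cd200 they were Tstd3 (r = 0.91), Smco4, Tmem135, Mccc2 and Ndufaf3, for Tspan13 Coil (0.89), Dhrs13, Pabpn1, Akirin2 and Mrpl41, and for Tspan4 Pald1 (0.93), Ppm1h, Zmynd8, Gm14325 and Pln. Vash2 (0.88), 2610307P16Rik, Zyx, Atg10 and Pank4 came closest to Chek2, and 2810013P06Rik (0.85), Rnaseh2c, Tm2d1, Ears2 and Rpsa to Septin1. Of these 25 genes, 0 were called in T compared with C by edgeR (smallest adjusted p = 0.193; 0.163% of all genes were called lower and 0.515% higher), and their median log2 fold change there was -0.11. Each list is the top of 14748 correlations over 16 mice and carries no test.

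The marker sums of 13 cell types were compared with the 5 genes in the same way, within groups. Of the 65 relations, 3 had an unadjusted permutation p under 0.05 and 0 passed, the smallest adjusted p being 0.953. The 3 were Tspan4 with satellite cells (r = -0.62, permutation p = 0.0217; rho = -0.64, p = 0.0216; r = -0.49 without the 2 farthest mice), Cd200 with endothelial cells, and Tspan13 with satellite cells (r = 0.57, permutation p = 0.0490; rho = 0.50, p = 0.0905; r = 0.77 without the 2 farthest mice). Summed endothelial genes, 14 genes of a cell type that makes CD200, were 265 to 323 FPKM in C, 324 to 347 in E, 266 to 404 in T and 267 to 343 in TE. In T compared with C, 8 of the 14 had positive and 6 negative log2 fold changes, their median being 0.12, and 1 was called lower (0.163% of all tested genes). That gene was Kdr, the VEGF receptor, at -0.68 (adjusted p = 0.0457, edgeR), named after its values were seen. The r of Cd200 with the endothelial sum within groups was -0.66 (permutation p = 0.0466, adjusted p = 0.953; rho = -0.52, p = 0.11, adjusted p = 0.983), and -0.26 without the 2 farthest mice. The 8 Schwann cell markers all had negative log2 fold changes in T compared with C (median -0.56) and in TE compared with E (median -0.40), with 0 called in either by edgeR (smallest adjusted p = 0.0994 and 0.428; 0.163% and 0.115% of all genes were called lower), and summed to 182 to 416 FPKM in C, 144 to 348 in E, 130 to 266 in T and 130 to 185 in TE. The lists of 3 more cell types had lower values in TE compared with E but higher ones in E compared with C, with 0 called in either by edgeR, where 0.231% and 0.0881% of all genes were. Of the pericyte and smooth muscle genes, 8 of 8 were lower in TE compared with E (median log2 difference -0.37, smallest adjusted p = 0.0547), as were 7 of 8 fibro-adipogenic genes (median -0.45, smallest adjusted p = 0.11) and 6 of 6 adipocyte genes (median -0.58, smallest adjusted p = 0.733). In E compared with C, 8 of 8, 8 of 8 and 6 of 6 were higher, with medians of 0.38, 0.50 and 1.46. In T compared with C, all 8 macrophage markers had positive log2 fold changes (median 0.66, smallest adjusted p = 0.152, edgeR), with sums of 22.3 to 42.7 FPKM in C and 31.3 to 61.5 in T. All 9 tested T cell markers (median -2.81, smallest adjusted p = 0.243) and all 7 B cell markers (median -5.04, smallest adjusted p = 0.229) had negative ones. T cell sums were 0.645 to 8.74 FPKM in C and 0.516 to 1.23 in T, and B cell sums 0.363 to 10.5 and 0.116 to 0.434. The high C sums were those of C replicate 3 (8.74 for T and 10.5 for B cells), set apart above, and C replicate 2 (3.87 and 3.34). C replicates 1 and 4 were at 0.645 and 0.702 for T cells and 0.363 and 0.822 for B cells. The C and T sums of the macrophage, T cell and B cell lists overlapped. All 6 tested neutrophil markers had positive log2 fold changes in T compared with C (median 4.52). Of these, 5 were called (smallest adjusted p = 0.0103, edgeR), where 0.515% of all genes were called higher. In TE compared with E, all 6 were positive (median 2.56) and 0 were called (smallest adjusted p = 0.0961, edgeR). The part of these cells in the values of the 5 genes was not tested.

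The receptors of CD200 were close to the limit of detection in this muscle. Of 10 genes of the receptor and signaling list, 7 were in the tables and 4 passed the filter on low counts, with 0 called in any of the 6 comparisons, in which at most 0.515% of all genes were called in a direction. Cd200r1, the inhibitory receptor, was at 0.147 ± 0.108 FPKM in C and 0.211 ± 0.103 in T (SD, n = 4; log2 fold change 0.54, SE 0.576, adjusted p = 0.718, edgeR). Cd200r2 had 0 counts in all libraries, and Cd200r3 and Cd200r4 had 22 and 53 counts over all 16. Rasa1, which encodes a RasGAP, and the adaptor genes Dok1 and Dok2 had the highest levels of the list at 4.52, 1.23 and 0.226 FPKM.

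The other tetraspanins were spread around no difference in T compared with C. Of 25 other tested members of the family, 10 had positive and 15 negative log2 fold changes, their median being -0.04 against -0.0012 over all tested genes. edgeR called 0 of the 25 lower, where 0.163% of all genes were, so that 0 of 25 says little, and 1 higher, where 0.515% of all genes were. That gene was Tspan11 (0.424 ± 0.109 FPKM in C and 0.784 ± 0.242 in T, log2 fold change 0.91, adjusted p = 0.0476), named here after its values were seen. The most abundant were Tspan3 at 70.7 FPKM, the exosome marker Cd63 at 63.7 and the integrin partner Cd151 at 59.4, with log2 fold changes of -0.03, 0.08 and -0.03 in T compared with C. None of the 25 was called in TE compared with E (0.231% of all genes), in TE compared with C (0.325%) or in the other 3 comparisons (0.0% to 0.0881%). Of the 8 tested partners of tetraspanins, 0 were called in any of the 6 comparisons, near these shares, and the 3 most abundant, the integrin chains Itgb1 and Itga7 and the protease Adam10, differed by 0.07, 0.15 and -0.10 in T compared with C.

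The other septins are filament partners of Septin1. Of 10 other tested septins, 7 were higher and 3 lower in T compared with C, with a median log2 fold change of 0.08 and 0 called in any of the 6 comparisons. So few genes were called of all tested (0.163% lower and 0.515% higher in T compared with C) that 0 of 10 says little about the septins. Septin7, Septin2 and Septin9, the most abundant, were at 29.2, 24.1 and 6.03 FPKM and differed by 0.09, -0.01 and 0.20. Mylpf, the fast myosin regulatory light chain that overlaps Septin1, was at 11150 ± 1130 FPKM in C and 9671 ± 1480 in T. It differed by -0.18 (adjusted p = 0.449, edgeR), against -0.84 for Septin1. How many Mylpf reads were counted for Septin1 was not tested.

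Around Chek2, 0 of 23 other tested genes of the DNA damage checkpoint were called in any comparison, where the shares called of all genes ran from 0.0% to 0.515% in a direction, and 15 were higher and 8 lower in T compared with C, with a median of 0.04. Atm, the kinase upstream of Chek2, was at 1.19 ± 0.149 FPKM in C and 1.22 ± 0.0823 in T (log2 fold change 0.07, adjusted p = 0.803, edgeR). Chek1, the related kinase of the ATR branch, was low at 0.0700 ± 0.0353 and 0.0986 ± 0.0775 FPKM. Trp53, Rad17 and Ppm1d had the highest levels of the list at 6.97, 6.54 and 3.45 FPKM, and Trp53, which encodes p53, differed by -0.26 (adjusted p = 0.339).

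Among 19 tested target genes of p53, 11 were higher and 8 lower in T compared with C. The 1 called was higher, where 0.515% of all genes were called higher. It was the death receptor gene Fas, with a log2 fold change of 1.05 (SE 0.211, adjusted p = 0.0335, edgeR), named here after its values were seen. Cdkn1a, the cell cycle inhibitor p21, was at 6.09 ± 1.30 FPKM in C, 9.61 ± 1.75 in E, 15.2 ± 10.2 in T and 14.9 ± 3.66 in TE (SD, n = 4), with 1.33 in T compared with C (adjusted p = 0.0662). Mdm2, the ubiquitin ligase that limits p53, differed by 0.16 (adjusted p = 0.243). Ccng1, Phlda3 and Ei24 had the highest levels at 234.0, 131.0 and 27.7 FPKM, with differences of -0.07, -0.07 and -0.05. None of the 19 was called in the other 5 comparisons, in which 0.0% to 0.325% of all genes were.

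**Figure D4:**
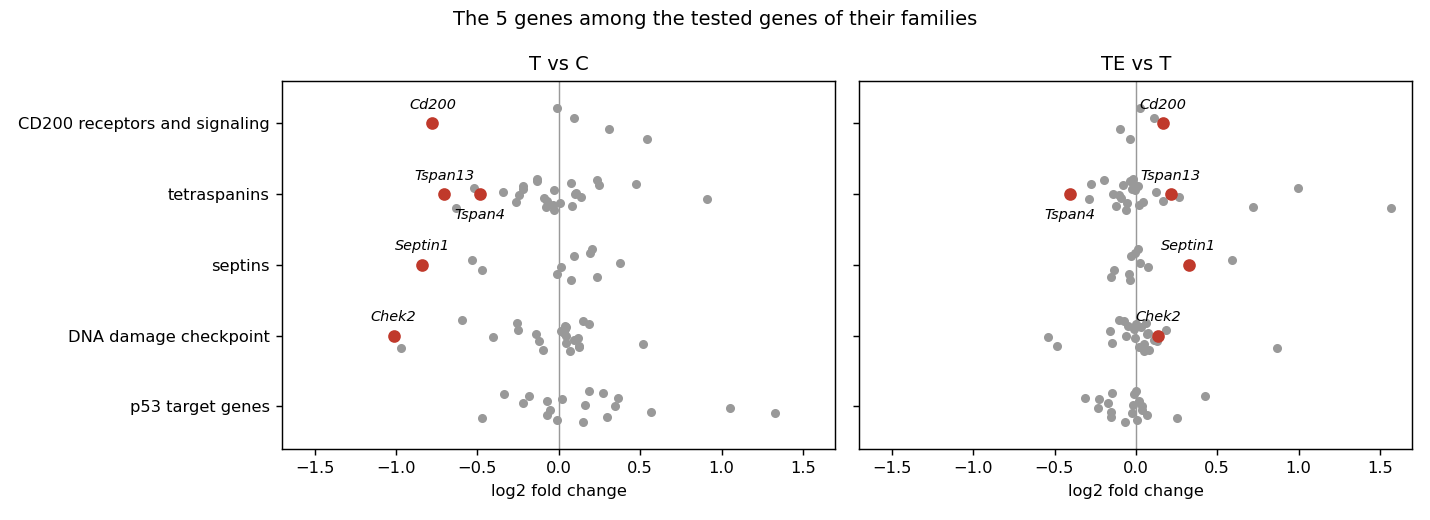
Log2 fold changes (horizontal axis) of the tested genes of 5 gene lists (rows; vertical spread within a row has no meaning) in T vs C and in TE vs T, with the 5 genes in red and the other list genes in grey. In T vs C the 5 genes lie between -1.02 and -0.49, while the medians of the other tetraspanins, septins and checkpoint genes are -0.04, 0.08 and 0.04.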

How the data were processed

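RNA of the gastrocnemius muscle of 16 mice (4 each in the C, E, T and TE groups, from the labels) was sequenced from both ends. The authors trimmed reads with fastp 0.20.1, aligned them to GRCm39 with HISAT2 2.1.0 and deposited raw counts per gene from HTSeq-count 0.11.2. The authors also deposited FPKM, which follow from these counts with 1 length per gene. The labels give 1 batch, and the tables held 0 other columns. The strand setting and annotation release are not given in the sources used here.

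The members and gene lists were chosen with earlier results of these data known. The named genes are the 5 members, for each the 5 genes with the highest within-group r, and the 3 most abundant and any called gene of each family list. The partners Cd200r1, Atm, Chek1, Trp53, Cdkn1a and Mdm2 were added, and marker genes at 0 in every library, of which there were 0. Outside this rule, genes that overlap a member are named, as is Kdr, the called endothelial marker. Called markers of neutrophils and fibro-adipogenic cells are not named. Counts of 14749 genes kept by filterByExpr were fitted with edgeR 4.0.16 (R 4.3.3; TMM, glmQLFit, glmQLFTest, 1 coefficient per group, all 16 libraries, two-sided, Benjamini-Hochberg over all tested genes). Genes were called at an adjusted p under 0.05 with no fold threshold, as the differences of these genes mostly lie under the 2-fold threshold of the study. The script was tested on simulated data. Deviations used log2 CPM with a prior count of 2 and 100000 permutations of mice within groups. FPKM were compared by exact permutation (scipy 1.17.1). Gene positions are from GENCODE release 39 for the mouse and promoters from RefSeq. Alternatives were DESeq2 1.42.0, limma 3.58.1 on log2(FPKM + 0.1) or log2(FPKM + 1), other filters and scaling, and libraries left out. Replicate numbers recur across groups but mark different mice. Each sample is 1 mouse, and replicates within a group differed beyond counting noise (chi-square per degree of freedom 13.0 to 63.3). Reads had no molecular identifiers, so limits from counts cover counting error only.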

Additional observations from a re-analysis of the deposited data

Results flagged for a closer look

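Of the 20 combinations of the 5 genes and 4 groups, 3 held a mouse far from the other 3 of its group, and chance gives this in about 1 of 20. All 3 were in the C group. Cd200 was 30.4 FPKM in C replicate 2. Chek2 was 1.47 FPKM and Septin1 was 5.78 FPKM in C replicate 1, the first below and the second above the other C mice.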

How the results depend on the processing

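The 0 calls among the 5 genes in TE compared with T and in the interaction, the 0 pairs passing within groups and the 3 genes at the smallest exact p in TE compared with E (2 to 4 with 1 library left out) stayed within 1.5 times under every alternative run for them. In TE compared with E, the 1 call became 2 with DESeq2 and 2 in a fit of only the groups compared, and 0 with limma on log2(FPKM + 0.1), 0 with limma on log2(FPKM + 1), 0 without the 3 libraries of high lymph node genes and 0 to 2 with 1 library left out. In E compared with C, the 0 calls became 1 with DESeq2, 1 with no filter on low counts and 0 to 1 with 1 library left out. TE compared with C is a description, as C and probably TE took part in the choice. There the 4 genes past the threshold became 5 with DESeq2, which added Septin1, 2 without the 3 libraries and 3 to 4 with 1 left out. The cause was not tested.

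Same-numbered mice of different groups showed only weak correlations of their deviations (24 pairs, r from -0.24 to 0.21, 5 over 0.1), and the numbers were not used to pair them. This cannot exclude that same-numbered mice shared some step of the work. With a replicate block, 0 of the 5 genes were called in TE compared with E, and r was 0.0055 for Cd200 and Tspan13, -0.072 for Cd200 and Septin1 and 0.059 for Tspan13 and Tspan4.

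The sign of r close to 0 turned for 6 pairs. On log2(FPKM + 0.1) and on log2(FPKM + 1), Cd200 and Septin1 had -0.014 and -0.027, and Tspan13 and Tspan4 had 0.068 and 0.080. With 1 library left out, r ran from -0.402 to 0.166 for Cd200 and Tspan13, from -0.168 to 0.166 for Cd200 and Septin1, from -0.252 to 0.0585 for Tspan13 and Tspan4, from -0.19 to 0.0856 for Tspan13 and Septin1, from -0.0907 to 0.34 for Tspan4 and Chek2 and from -0.274 to 0.0834 for Tspan4 and Septin1. Over all genes, calls ranged from 16 to 422 in T compared with C, 16 to 179 in TE compared with E, 0 to 7 in TE compared with T, 0 to 280 in E compared with C, 14 to 243 in TE compared with C and 0 to 20 in the interaction, against 100, 34, 0, 13, 48 and 0 in the fit reported. With 140 to 383 counts per library, Chek2 was the gene most limited by depth.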
